A study of Mus musculus with 30 samples.

Results

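A set of 10 genes grouped as feedback inhibitors of the ERK pathway was followed in splenic B cells of mice with a mutant Ikzf3. It holds the phosphatases Dusp1, Dusp2, Dusp4, Dusp5, Dusp6 and Dusp10 and the adaptor proteins Spry1, Spry2, Spred1 and Spred2. Of these, Dusp10 acts on the kinases p38 and JNK. The genes were chosen by name. All 10 have an entry in both deposited tables, among 22781 genes of the aged table and 26266 of the young table. The mice carry a knock-in of Ikzf3 L161R whose expression is restricted to B cells, on C57BL/6. Aiolos, the Ikzf3 product, is a lymphoid DNA-binding protein of the Ikaros family with zinc fingers. What drives the restriction to B cells, and whether wild-type mice carry the same driver, is not given in the sources used here.

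The RNA-seq libraries fall into 5 groups. Young mice, 2 to 3 months of age, gave B cells of wild type (n = 3) and of Ikzf3 fl/fl, homozygous for the mutation (n = 3). Aged mice, 15 to 18 months, gave B cells of wild type (n = 3), CLL cells (n = 5) and B cells of mutant mice other than the CLL cells (non-CLL B cells, n = 4). CLL cells resemble chronic lymphocytic leukaemia and were sorted as B220+CD5+. CLL libraries 1, 2, 4 and 5 and non-CLL libraries 2, 4 and 5 are Ikzf3 fl/+, and library 6 of either kind is Ikzf3 fl/fl. The CLL and non-CLL groups therefore mix heterozygous mice with 1 homozygous mouse. The 12 chromatin samples of the series were not analysed here.

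The ERK cascade carries signals from the B cell antigen receptor through Ras, Raf and MEK to the kinases ERK1 and ERK2. Active ERK induces transcription of its own inhibitors. Dual-specificity phosphatases remove phosphate from both the threonine and the tyrosine of a MAP kinase, and differ in location and in preferred kinase. Sprouty and Spred proteins act further upstream and restrain the step from Ras to Raf. In B cells these transcripts serve as a readout of recent receptor signalling and as brakes on it.

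Expression is given as TPM, a transcript abundance that scales reads by gene length and library size, so levels of different genes within a table can be set side by side. TPM keeps no depth, so no counting interval can be given. The B cell markers Cd79a, Cd79b, Ms4a1, Pax5, Blk, Cd22 and Ebf1 were each at 1 TPM or more in all 18 libraries. Olfactory receptor genes, which B cells are not known to use, had a median of 0 TPM in all young libraries. In the aged table their median was 0 to 0.745 TPM in wild-type libraries, 7.16 to 9.24 TPM in non-CLL B cells, 9.66 TPM in CLL library 6 and 1.08 to 2.71 TPM in the other CLL libraries. Member genes at such levels in the aged table cannot be told apart from this background signal. In bulk samples, fewer cells of a type and less RNA per cell cannot be told apart either. The labels do not state that the young libraries come from separate animals, so their p-values measure the spread between these libraries.

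The promoters of 3 phosphatase genes that were higher in young homozygous B cells are shown because they hold named motifs in the 250 bases before the transcription start. RefSeq promoter sequences (GRCm38.p6, the assembly of mm10) were matched by symbol for 9 of the 10 genes. Capitals mark matches on either strand to CRE (TGACGTCA), the E-box CACGTG, GCGNGGGCG (the EGR motif), TGGGAA (an Ikaros-type core) or the CArG box.
Dusp1 promoter, chr17:26508473-26508722, minus strand: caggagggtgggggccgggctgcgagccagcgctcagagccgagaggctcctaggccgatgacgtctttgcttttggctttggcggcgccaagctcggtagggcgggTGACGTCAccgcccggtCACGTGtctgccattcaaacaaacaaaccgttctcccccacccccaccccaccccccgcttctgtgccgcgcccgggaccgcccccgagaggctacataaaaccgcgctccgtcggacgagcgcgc
Dusp2 promoter, chr2:127335909-127336158, plus strand: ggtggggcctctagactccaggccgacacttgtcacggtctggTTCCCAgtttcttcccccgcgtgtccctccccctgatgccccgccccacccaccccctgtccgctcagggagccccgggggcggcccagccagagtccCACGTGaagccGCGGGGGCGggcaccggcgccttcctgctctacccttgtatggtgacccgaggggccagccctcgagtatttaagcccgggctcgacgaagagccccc
Dusp5 promoter, chr19:53528895-53529144, plus strand: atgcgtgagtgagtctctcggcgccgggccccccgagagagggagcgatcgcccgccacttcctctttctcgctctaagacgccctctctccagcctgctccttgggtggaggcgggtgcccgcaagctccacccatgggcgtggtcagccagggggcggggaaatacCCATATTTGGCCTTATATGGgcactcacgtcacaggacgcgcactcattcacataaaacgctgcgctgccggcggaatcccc
The Dusp1 window holds a CRE that begins 143 bases before the start and an E-box 126 bases before it. The Dusp5 window holds a pair of adjoining CArG boxes, the binding motif of serum response factor, which begin 82 and 72 bases before the start. The Dusp2 window holds the Ikaros-type core on the opposite strand (207 bases before the start), an E-box (109) and the EGR motif (98). Of 32851 mouse promoter windows of this length, 1.55% hold a CRE, 1.47% a CArG box, 4.7% the EGR motif, 6.02% the E-box and 21.6% the Ikaros-type core. Beyond these genes, 1 member window, that of Spred2, held a searched motif, the Ikaros-type core. The AP-1 motif TGANTCA, in 6.75% of all windows, had no match in the 9 member windows. Nor had the ETS motif CCGGAAGT (2.88%), the heat shock motif GAANNTTC (6.69%) or the NF-kB motif (3.9%). The TATA box, searched as TATAAA (12.4%), was not found in them either. None of the matches overlap each other, and a match is a description of the letters.

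In young mice Dusp1, Dusp2, Dusp4, Dusp5 and Dusp10 were higher in homozygous than in wild-type B cells, while no call was made for Dusp6 or the adaptors. Dusp1 and Dusp4 differed most, at 2.68-fold and 2.73-fold. Dusp2, the most abundant of the 10, was 1.67-fold, Dusp10 1.60-fold and Dusp5 1.53-fold higher. Folds are ratios on the log2(TPM + 1) scale, and genes with an adjusted p under 0.05 in limma are called higher or lower. Of the 9 members tested 5 were called higher and 0 lower, where 51.0% of all 12219 tested genes were called, 38.4% higher and 12.6% lower. The share of members called is thus near that of all genes. The members' median log2 change was 0.61, against 0.18 over all genes tested. Spry1 did not reach the minimum of 1 TPM in 3 libraries and was not tested.

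**Figure D1:**
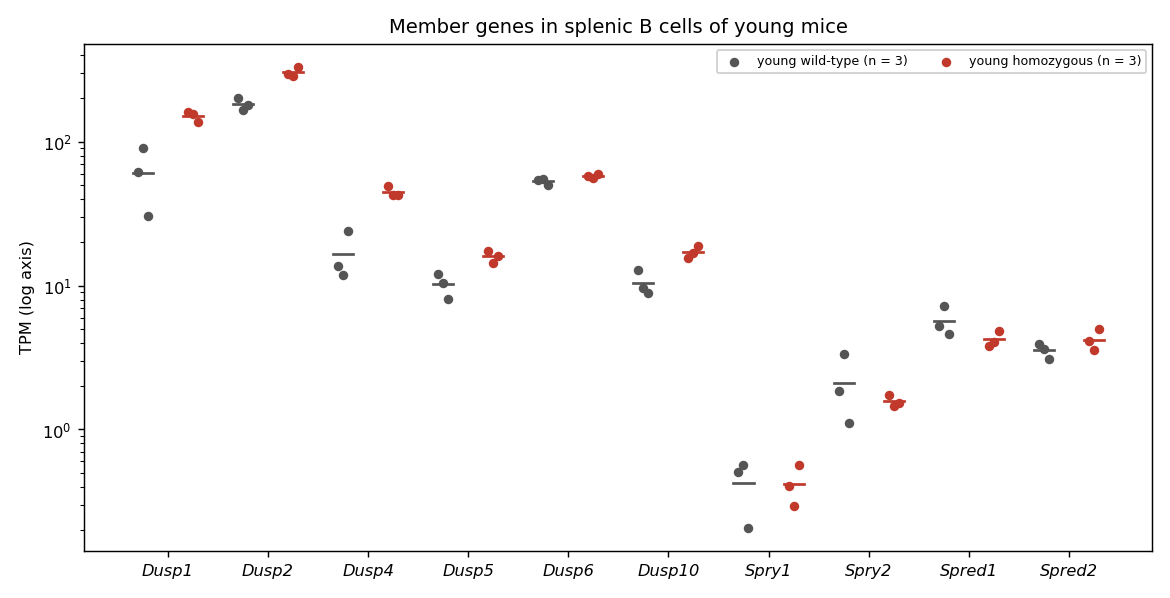
TPM (log axis) of the 10 genes in each library of young wild-type (grey, n = 3) and young homozygous (red, n = 3) B cells, with bars at the group means. The groups do not overlap for any of the 6 phosphatases, as for 61.4% of all genes tested, and overlap for the 4 adaptor genes, and Dusp2 is highest in both groups.

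Dusp1 (chromosome 17, 26505591 to 26508472) encodes a nuclear phosphatase of p38, JNK and ERK that is induced within minutes of stimulation. Wild-type libraries 1, 2 and 3 held 61.5, 90.6 and 30.7 TPM of it, and the homozygous libraries 161, 155 and 137 TPM. All homozygous values lay above the wild-type values, of which library 3 was lowest. The log2 change was 1.42 (SE 0.41, 95% interval 0.35 to 2.50, adjusted p = 0.0403 in limma). The call was lost without wild-type library 1 (adjusted p = 0.0969) and without homozygous library 1 (0.0878), 2 (0.116) or 3 (0.0943), with log2 changes between 1.37 and 1.49, and under TMM rescaling (1.21, adjusted p = 0.0688). With wild-type libraries 1 and 2 left out the log2 change was 2.26, a value against the 1 library left, which had the least Dusp1, and with no spread among wild-type libraries behind it. The libraries left out held the most Lyz2, a macrophage transcript, at 1440 and 2330 TPM, against 222 TPM in wild-type library 3 and 58.2 to 163 TPM in the homozygous ones. Over 15 myeloid markers the summed level was 1500 to 5360 TPM in wild-type and 198 to 461 TPM in homozygous libraries, with none at 0 in every library. The part of myeloid RNA in Dusp1 was not tested.

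Dusp4 (chromosome 8, 34807610 to 34819894) encodes another nuclear phosphatase, of ERK and JNK. Its level was 13.6, 11.8 and 24 TPM in wild-type samples and 48.9, 42.6 and 42.9 TPM in homozygous ones. The lowest homozygous library was well above the highest wild-type library. The log2 change was 1.45 (SE 0.25, 95% interval 0.84 to 2.07, limma adjusted p = 0.00472), and 167 of 12219 genes had a larger one. Wild-type library 3 had the most Dusp4 and the least Dusp1 of its group. Against wild-type library 3 alone the log2 change was 0.87, with no spread among wild-type libraries behind it.

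Dusp2 (chromosome 2, 127336159 to 127338377), a nuclear phosphatase of activated lymphocytes, was at 200, 167 and 179 TPM in wild-type and 296, 287 and 331 TPM in homozygous libraries. Its libraries varied little within each group, and the groups were apart by more than either spread. The log2 change was 0.74 (SE 0.09, limma adjusted p = 0.000561). Dusp5 (chromosome 19, 53529145 to 53541809), a nuclear phosphatase that is specific for ERK, was at 12, 10.5 and 8.11 TPM against 17.5, 14.4 and 16.2 TPM (log2 0.61, SE 0.14, limma adjusted p = 0.00724). Dusp10 (chromosome 1, 184034381 to 184075636), which acts on p38 and JNK, was at 12.8, 9.56 and 8.86 TPM against 15.5, 16.9 and 18.9 TPM (log2 0.67, SE 0.14, limma adjusted p = 0.00461). Both low-level phosphatases were higher in every homozygous library than in any wild-type library. For Dusp5 the call was lost under TMM rescaling (limma, adjusted p = 0.0579).

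Dusp6 (chromosome 10, 99263231 to 99267489) encodes the cytoplasmic phosphatase of ERK. It was at 54.1, 55.4 and 50.4 TPM in wild-type and 58.0, 56.3 and 59.4 TPM in homozygous libraries. The groups did not overlap, but the log2 change of 0.12 (SE 0.07, limma adjusted p = 0.204) was not called, and its 95% interval ran from -0.05 to 0.28. Under TMM rescaling it was -0.09. Groups did not overlap for 61.4% of all genes tested, so groups apart, as at Dusp6, are common in this table.

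The Sprouty and Spred genes were low in young B cells. Spry1 (chromosome 3, 37639947 to 37644599) lay between 0.21 and 0.57 TPM and Spry2 (chromosome 14, 105891947 to 105896819) between 1.11 and 3.34 TPM over the 6 libraries. Spred1 (chromosome 2, 117121071 to 117182279), which brings the Ras inactivator neurofibromin to the membrane, was at 5.70 ± 1.34 TPM (SD, n = 3) in wild-type and 4.25 ± 0.549 TPM (n = 3) in homozygous libraries. Spred2 (chromosome 11, 19924442 to 20024026) was at 3.55 ± 0.404 and 4.21 ± 0.711 TPM. Groups overlapped for all 4 adaptors. The 95% intervals of the log2 change were -0.77 to 0.36 for Spry2, -0.72 to 0.05 for Spred1 and -0.16 to 0.54 for Spred2, with limma adjusted p = 0.506, 0.123 and 0.320. Spred1 was called lower under TMM rescaling (log2 -0.51, limma adjusted p = 0.0408) and without wild-type library 3 (-0.45, adjusted p = 0.049). Spry2, Spred1 and S100a8, a neutrophil transcript (948 TPM), were each highest in wild-type library 2.

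Within the young wild-type group Dusp2 was the most abundant of the 10 at 182 ± 16.8 TPM (SD, n = 3), followed by Dusp1 (60.9 ± 29.9), Dusp6 (53.3 ± 2.57), Dusp4 (16.5 ± 6.58), Dusp10 (10.4 ± 2.12) and Dusp5 (10.2 ± 1.96). Dusp1 and Dusp6 did not differ beyond their spread, nor did Dusp10 and Dusp5. In homozygous B cells Dusp1 (151 ± 12.7 TPM, n = 3) lay above Dusp6 (57.9 ± 1.57) in every library. The 10 genes summed to 310 to 366 TPM in wild-type and 582 to 618 TPM in homozygous libraries.

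Genes of the surrounding pathway were grouped in lists, which were drawn up with earlier results of these data known. Their counts stand beside the 38.4% of all tested genes called higher and 12.6% called lower. Of 24 tested ERK-responsive transcription genes 18 were called higher and 0 lower in young homozygous B cells, with a median log2 change of 0.69 against 0.18 over all genes. The immediate early transcription factor Egr1 was at 184 ± 34.8 against 33.5 ± 6.25 TPM (n = 3 each, log2 2.42, limma adjusted p = 0.000296). Fosb and Fos, subunits of AP-1, changed by 4.09 and 2.45 on the log2 scale. Of 23 genes of the Ras-ERK cascade 13 were higher and 4 lower (median 0.28). The kinases Braf (log2 1.04) and Araf (0.66) and the Ras activator Rasgrp3 (0.68) were higher, while the small GTPases Rras2 (-0.82) and Hras (-0.48) and the activator Rasgrp4 (-0.85) were lower. Of 11 other dual-specificity phosphatases 5 were higher and 0 lower (median 0.33), among them Dusp18 (log2 1.73), Dusp11, which acts on RNA (0.99), and the catalytically inactive Styx (0.66). Of 8 Ras GTPase-activating proteins, which switch Ras off, 3 were higher (Rasa2, Rasal3 and Rasa1, log2 0.77, 0.76 and 0.75) and 2 lower (Rasal1 and Rasa4, -0.81 and -0.58). Of 14 genes of the p38 and JNK cascade 7 were higher and 0 lower, led by Mapk11 (log2 0.82), Map3k5 (0.65) and Mapk8 (0.63). Among 11 partners of Sprouty and DUSP proteins 8 were higher and 0 lower, including the ubiquitin ligases Cbl (log2 1.37) and Siah2 (1.04) and the transcription factor Ets1 (0.49). The remaining Sprouty and Spred genes, Spry3, Spry4 and Spred3, did not reach the minimum. Under TMM rescaling, which moved the median of all genes to -0.01, the genes named here kept direction and call, and 14 ERK-responsive genes were higher and 0 lower. The cascade then had 8 higher and 6 lower, and the other phosphatases and the p38 and JNK genes 2 lower each.

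In aged mice Spry2 separated CLL cells from the other B cells of the same mice. It was 14.1-fold lower in CLL cells than in non-CLL B cells, and 10 of 22316 genes had a more negative log2 change. Of the 10 members 1 was called lower and 0 higher in this comparison, where 5.77% of all tested genes were called, 5.02% lower and 0.744% higher. With the mouse number as a block the genes called lower over the whole table were 577 in place of 1121. The members' median log2 change was -0.55, against -0.77 over all genes tested.

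Spry2 stood at 3.61, 18.1, 22.8, 3.89 and 17.3 TPM in CLL libraries 1, 2, 4, 5 and 6. In non-CLL libraries 2, 4, 5 and 6 it stood at 152, 146, 100 and 285 TPM, and in wild-type libraries 1, 2 and 3 at 41.6, 37.0 and 154 TPM. Every CLL library was below every other aged library. CLL and non-CLL groups did not overlap for 8.68% of all genes tested, and CLL and wild-type groups for 31.5%. The log2 change between CLL and non-CLL cells was -3.82 (SE 0.55, 95% interval -5.01 to -2.62, limma adjusted p = 0.00445). It was called in all 20 alternative settings, with log2 changes from -4.32 to -2.95. Within mice 2, 4, 5 and 6 the log2 difference was -3.00, -2.63, -4.37 and -3.96. Spry2 was above the 95th percentile of olfactory receptor genes in all 4 non-CLL, all 3 wild-type and 3 of 5 CLL libraries.

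**Figure D2:**
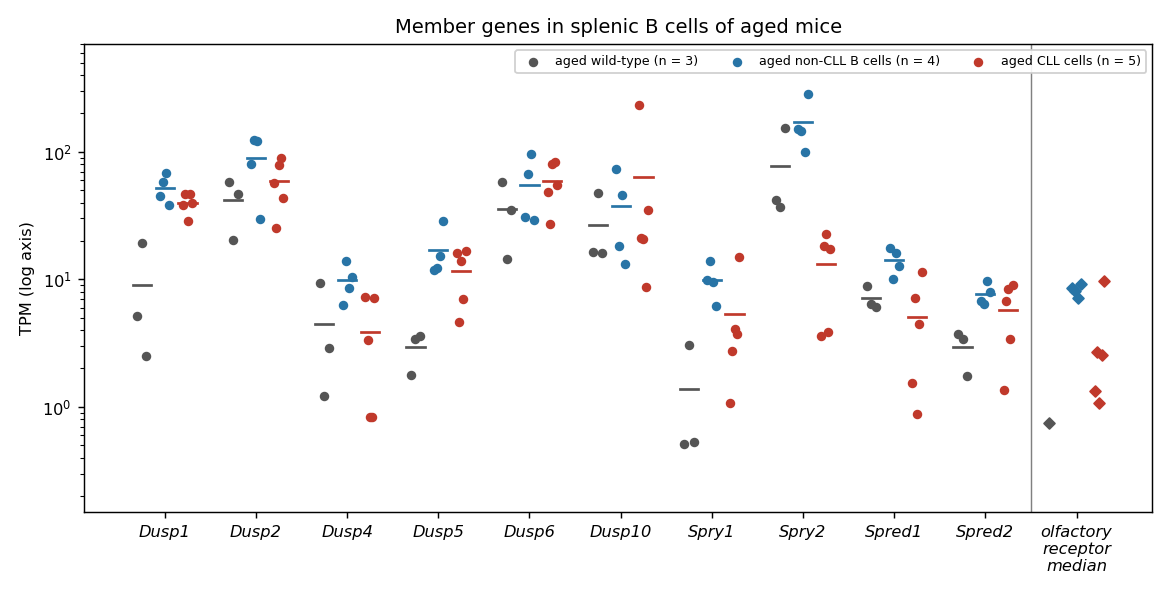
TPM (log axis) of the 10 genes in each library of aged wild-type (grey, n = 3), non-CLL (blue, n = 4) and CLL (red, n = 5) cells, with bars at the group means. Diamonds at the right show each library's median over 1106 olfactory receptor genes (wild-type libraries 1 and 3, at 0, are not drawn). All CLL values of Spry2 (3.61 to 22.8) lie under those of the other groups, and Dusp4, Spry1 and Spred2 of the non-CLL libraries lie at the level of the diamonds. CLL and non-CLL groups do not overlap for 8.68% of all genes tested.

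Transcripts of dendritic and natural killer (NK) cells had their highest sums in non-CLL libraries, the group with the highest mean of Spry2. The 7 markers of plasmacytoid and conventional dendritic cells, none at 0 in every library, summed to 324 to 1220 TPM in non-CLL, 50.0 to 253 TPM in wild-type and 35.0 to 108 TPM in CLL libraries. Siglech, a surface lectin of plasmacytoid dendritic cells, was highest in non-CLL library 6 (784 TPM), as was Spry2. Wild-type library 3 differed, since Spry2 was at 154 TPM there with Siglech at 1.89 TPM, and in wild-type library 2 Spry2 was at 37.0 TPM with Siglech at 126 TPM. The 6 NK cell markers, none at 0 in every library, summed to 142 to 670 TPM in non-CLL libraries, highest in library 6, to 7.47 to 37.1 TPM in wild-type and to 11.4 to 49 TPM in CLL libraries. The sums include the background, with olfactory receptor medians of 7.16 to 9.24 TPM in non-CLL libraries. Among non-CLL libraries, library 6 also had the highest myeloid (601 TPM), T cell (575), plasma cell (797) and erythroid (35.1) sums. Its B cell sum was the lowest (5550 TPM). The peak of library 6 is thus not particular to dendritic or NK cells. The part of dendritic and NK cells in the Spry2 difference was not tested.

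Against aged wild-type B cells Spry2 in CLL cells had a log2 change of -2.47 (SE 0.68, 95% interval -3.97 to -0.97, limma adjusted p = 0.0542), which was not called although the groups did not overlap, as for 31.5% of all genes tested. In 11 of 19 alternatives it was called. Among these were the fits without CLL library 2 (limma adjusted p = 2.62e-06), CLL library 4 (0.00809) or wild-type library 1 (3.9e-05) or 2 (1.04e-06), with log2 changes between -2.84 and -2.66. It was also called with heterozygous CLL libraries only, that is without CLL library 6 (-2.65, limma adjusted p = 0.0296), and at the threshold without CLL library 1 (-2.15). Non-CLL B cells had a log2 change of 1.34 against wild-type (limma adjusted p = 0.0505), with overlapping groups. It was called without non-CLL library 5 (1.56, limma adjusted p = 0.0442) and without wild-type library 3 (1.99, 0.00163). The order of the group means was thus non-CLL (171 ± 79.3 TPM, SD, n = 4), wild-type (77.4 ± 66.1, n = 3) and CLL (13.2 ± 8.84, n = 5), in which only the step between the first and the last was called.

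Dusp1 was higher in both kinds of mutant cell than in aged wild-type cells. Its level was 38.5, 46.7, 28.7, 46.4 and 39.5 TPM in CLL libraries 1, 2, 4, 5 and 6, 45.4, 58.2, 68.0 and 38.1 TPM in non-CLL libraries 2, 4, 5 and 6, and 5.17, 19.4 and 2.52 TPM in wild-type samples. The lowest mutant library lay above the highest wild-type library. Such groups apart were found for 31.5% of all genes tested for CLL cells and 56.0% for non-CLL cells. The log2 change was 2.41 in CLL cells (SE 0.44, 95% interval 1.52 to 3.30, limma adjusted p = 0.000626). In non-CLL cells it was 2.77 (SE 0.53, 95% interval 1.60 to 3.95, limma adjusted p = 0.000926). These comparisons share the wild-type libraries. In CLL cells Dusp1 was the 1 member of 10 called higher and 0 were called lower, where 3.54% of 21202 tested genes were called, 2.94% higher and 0.604% lower. After the median of olfactory receptor genes was subtracted in each library the changes were 2.29 and 2.53 and no longer called (limma adjusted p = 0.0512 and 0.0589). Under TMM rescaling the change in non-CLL cells was 1.67 and not called (adjusted p = 0.0684). The change in CLL cells was not called with the replicate block (1.95, limma adjusted p = 0.0833) or without trend and robust estimation (0.0513). That block takes the change from CLL and wild-type libraries 1 and 2 only, which are from different mice. Between CLL and non-CLL cells the log2 change was -0.37 (95% interval -0.97 to 0.23, limma adjusted p = 0.340), and it was 0.53 under TMM rescaling. The myeloid markers (14 of 15 in this table, none at 0 in every library of a group) summed to 38.7 to 399 TPM in wild-type, 307 to 601 TPM in non-CLL and 286 to 646 TPM in CLL libraries other than library 2, which had 6470 TPM. Without CLL library 2 Dusp1 was still called higher than in wild-type cells.

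**Figure D3:**
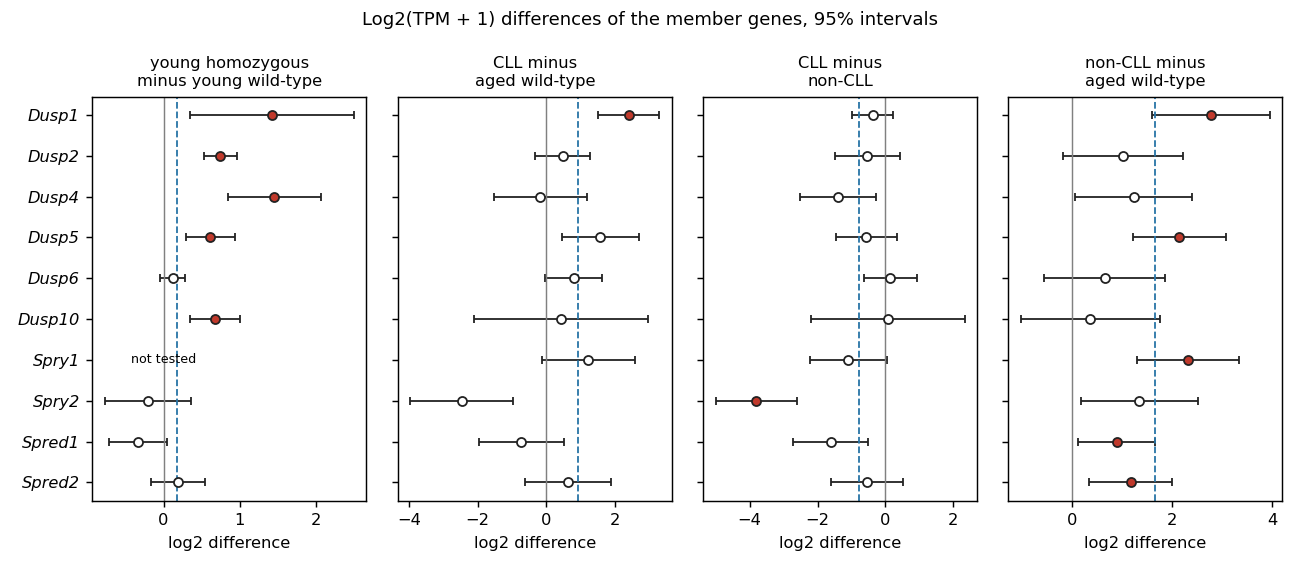
Difference of mean log2(TPM + 1) for each gene in the 4 comparisons, with 95% intervals (horizontal bars). Filled points have an adjusted p under 0.05, the grey line marks 0 and the dashed line the median over all genes tested (0.18, 0.93, -0.77 and 1.65 from left to right). Spry2 (-3.82) is the filled point between CLL and non-CLL cells, and Dusp1 is filled in the other 3 panels.

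In non-CLL B cells 5 of 10 members were called higher than in wild-type B cells and 0 lower: Dusp1, Dusp5, Spry1, Spred1 and Spred2. This share is near the background, since 57.3% of 22150 tested genes were called, 55.8% higher and 1.48% lower. The groups did not overlap for 56.0% of them. The members' median log2 change was 1.20, under the 1.65 of all genes. Spry1 was at 9.83, 14.0, 9.52 and 6.14 TPM in non-CLL libraries against 0.51, 3.08 and 0.53 TPM (log2 2.32, SE 0.46, limma adjusted p = 0.00103). Spred2 was at 6.78, 6.46, 9.63 and 7.99 TPM against 3.70, 3.41 and 1.73 TPM (log2 1.17, SE 0.38, limma adjusted p = 0.0205). None of the non-CLL values of Spry1, Spred2 or Dusp4 was above the 95th percentile of olfactory receptor genes of its library, which was 13.9 to 27.1 TPM. Spred1 was at 17.7, 10.0, 16.0 and 12.8 TPM against 8.85, 6.43 and 6.03 TPM (log2 0.89, SE 0.35, limma adjusted p = 0.0498), and leaving out any 1 of the 7 libraries ended its call (adjusted p between 0.055 and 0.167). Spred2 lost its call without non-CLL library 2 (limma adjusted p = 0.0533) or 5 (0.071) or wild-type library 3 (0.0867). After background subtraction or under TMM rescaling 0 of 10 members were called higher, and with the subtraction Spred1 (-0.36) and Spred2 (-1.40) turned negative.

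Dusp5 was at 11.9, 12.3, 15.1 and 28.7 TPM in non-CLL libraries, 16.0, 4.61, 13.8, 7.03 and 16.6 TPM in CLL libraries and 1.77, 3.41 and 3.6 TPM in wild-type samples. Both mutant groups lay wholly above wild-type. Groups did not overlap for 56.0% of all genes tested in non-CLL against wild-type cells, and for 31.5% in CLL against wild-type cells. The log2 change was 2.14 for non-CLL B cells (SE 0.42, limma adjusted p = 0.000954) and 1.58 for CLL cells (SE 0.56, limma adjusted p = 0.0546). The latter was called in 5 alternatives, among them without CLL library 4 (limma adjusted p = 0.0468) and without wild-type library 2 (0.0465). Dusp5 exceeded the 95th percentile of olfactory receptor genes in 2 of 4 non-CLL and 3 of 5 CLL libraries, and with the background subtracted the changes were 1.16 and 1.10 (limma adjusted p = 0.319 and 0.379). Under TMM rescaling the change in non-CLL cells was 1.14 (adjusted p = 0.077).

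The more abundant Dusp2 and Dusp6 were not called in any aged comparison. Dusp2 was at 57.6, 20.3 and 47.0 TPM in wild-type, 80.2, 124, 122 and 29.9 TPM in non-CLL and 56.7, 25.2, 78.7, 88.8 and 43.5 TPM in CLL libraries. Dusp6 was at 58.2, 14.3 and 34.7 TPM in wild-type, 30.6, 66.4, 95.2 and 29.2 TPM in non-CLL and 48.8, 26.9, 79.5, 82.9 and 55.0 TPM in CLL libraries. For both genes wild-type library 2 was lowest of its group and CLL library 2 lowest of its group, and all groups overlapped. The log2 change of Dusp2 in non-CLL B cells against wild-type was 1.01 (95% interval -0.18 to 2.21, limma adjusted p = 0.135) was called without non-CLL library 6 (1.46, adjusted p = 0.00426) and with library weights (0.91, 0.021), and was -0.13 under TMM rescaling. That of Dusp6 in CLL cells against wild-type was 0.80 (95% interval -0.03 to 1.63, limma adjusted p = 0.121).

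Dusp10 stood far higher in 1 CLL library than in the others. CLL library 1 was at 231 TPM while the other 4 lay between 8.68 and 34.7 TPM. The non-CLL libraries lay between 13.2 and 73.8 TPM and the wild-type libraries between 16.2 and 47.4 TPM. No aged comparison of Dusp10 was called (limma adjusted p between 0.656 and 0.959), and without CLL library 1 the log2 change against wild-type was -0.27 in place of 0.43. Dusp4 was low throughout, at 9.32, 1.21 and 2.91 TPM in wild-type, 6.28 to 13.9 TPM in non-CLL and 0.836 to 7.20 TPM in CLL libraries. It was not called in the 3 aged comparisons (limma adjusted p between 0.0695 and 0.863). Among the alternatives it was called higher in non-CLL than in wild-type cells without wild-type library 1 (1.83, limma adjusted p = 0.00718). It was called lower in CLL than in non-CLL cells without CLL library 6 (-1.66, limma adjusted p = 0.0122), with heterozygous libraries only (-1.62, 0.0241) and with library weights (-1.56, 0.00598).

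Without CLL library 6, which had the olfactory receptor level of non-CLL libraries, 4 members were called lower in CLL than in non-CLL cells: Spry2, Dusp4, Spry1 (log2 -1.51, limma adjusted p = 0.00563) and Spred1 (-1.96, adjusted p = 0.0043). In the same fit 10736 genes were called lower over the whole table. Spred1 was at 1.54, 7.10, 0.884, 4.47 and 11.5 TPM in CLL libraries 1, 2, 4, 5 and 6, and with all libraries its log2 change was -1.61 (SE 0.54, limma adjusted p = 0.0568). Spred2 was at 1.35 to 8.97 TPM and Spry1 at 1.07 to 14.9 TPM in CLL libraries. Each of these adaptors was above the 95th percentile of olfactory receptor genes in at most 2 of 5 CLL libraries.

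**Figure D4:**
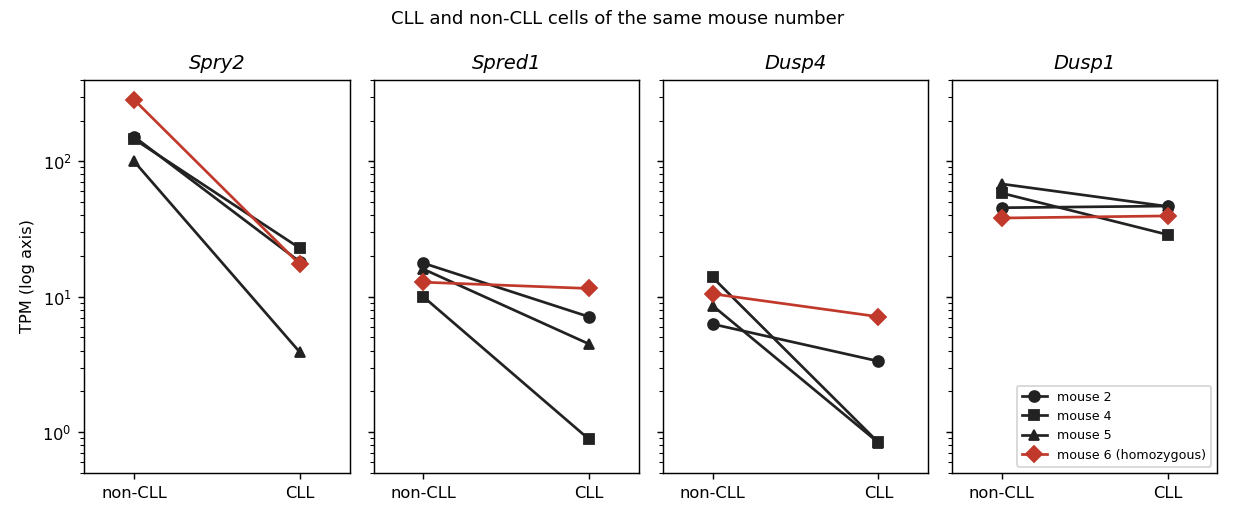
TPM (log axis) of Spry2, Spred1, Dusp4 and Dusp1 in non-CLL and CLL cells that carry the same mouse number (lines, 4 mice; mouse 6 is homozygous, in red). Spry2, Spred1 and Dusp4 are lower in the CLL cells of all 4 mice, by log2 differences of -2.63 to -4.37 for Spry2, and Dusp1 is lower in mice 4 and 5. Among the 4 non-CLL libraries Dusp4 is above the 95th percentile of olfactory receptor genes in 0, Spred1 in 2 and Spry2 in 4.

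In the surrounding pathway few genes were called between aged groups, apart from non-CLL B cells against wild-type. Over all genes tested the share called was 3.54% for CLL cells against wild-type and 5.77% against non-CLL cells. Few calls are thus not particular to these lists. Rras2, a Ras-related GTPase, was lower in CLL cells (19.6 ± 8.97 TPM, SD, n = 5) than in wild-type (94.3 ± 41.0, n = 3, log2 -2.29, limma adjusted p = 0.0166) and non-CLL cells (57.1 ± 23.0, n = 4, -1.61, limma adjusted p = 0.0446). It was the 1 gene called among 23 of the Ras-ERK cascade in either comparison, and under TMM rescaling it was called against wild-type only (-2.78 and -0.74). The transcription factor Ets2, a nuclear target of ERK, was at 86.4 ± 64.0 TPM in CLL cells against 16.0 ± 3.00 and 15.3 ± 1.79 TPM (log2 2.13 and 2.18, limma adjusted p = 0.00153 and 0.00130), the 1 gene called of 11 partners of Sprouty and DUSP proteins. Of 25 ERK-responsive transcription genes 2 were higher in CLL than in wild-type cells, Egr1 (log2 1.91) and Myc (1.46), and 0 lower. Against non-CLL cells Myc was higher (1.86) and Ccnd1 (-2.87), Junb (-1.63) and Ier2 (-1.38) were lower. Under TMM rescaling Egr1 against wild-type, Myc against non-CLL cells and Ets2 in both comparisons were called, while Myc against wild-type (limma adjusted p = 0.0826) and Ccnd1, Junb and Ier2 against non-CLL cells (0.077, 0.309 and 0.408) were not. Of 8 Ras GTPase-activating proteins Rasa4 (-2.35) and Rasa3 (-1.06) were lower in CLL than in wild-type cells and 0 differed from non-CLL cells. No gene of the p38 and JNK cascade (15 tested) was called in CLL cells. Against wild-type, TMM rescaling gave 3 p38 and JNK genes, 3 cascade genes and 4 Ras GTPase-activating proteins lower, with 0, 0 and 1 higher. Against non-CLL cells it gave 1 p38 and JNK gene and 1 cascade gene higher and 0 lower. Over all genes TMM rescaling gave 5300 higher and 1430 lower against wild-type, and 246 higher and 106 lower against non-CLL cells. Of 16 other dual-specificity phosphatases 0 were called in CLL cells against wild-type and 1 against non-CLL cells, Dusp9 (log2 -2.06), which was not called under TMM rescaling (-1.48, limma adjusted p = 0.0536). Dusp9 was at 8.95 ± 3.31 TPM in non-CLL libraries, the level of the olfactory receptor median. No gene among Spry3, Spry4 and Spred3 was called in CLL cells. After background subtraction 0 genes of all these lists were called in CLL cells against wild-type. Against non-CLL cells 1 of 20 ERK-responsive genes was then higher and 3 lower, and 1 of 11 partners was higher. The other lists held 0 calls. Over all genes 48 were then higher and 53 lower against wild-type, and 174 each against non-CLL cells.

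Against wild-type, non-CLL B cells had 14 of 25 ERK-responsive genes higher and 0 lower (median log2 1.32, against 1.65 over all genes). Fos was at 886 ± 127 against 151 ± 226 TPM, Fosb at 74.4 ± 30.7 against 12 ± 20 TPM and Jun at 184 ± 25.6 against 38 ± 48.9 TPM (n = 4 and 3), with log2 changes of 4.00, 4.04 and 3.05. Under TMM rescaling these were 2.84, 3.02 and 1.91 and not called (limma adjusted p = 0.0884, 0.097 and 0.108), and 2 of the 25 genes were higher and 5 lower. Spry3, Spry4 and Spred3 were called higher in 3 of 3 cases, at 7.66, 4.13 and 5.40 TPM in non-CLL cells, where the olfactory receptor medians were 7.16 to 9.24 TPM. Of 16 other dual-specificity phosphatases 7 were higher and 0 lower, led by Dusp9, Dusp18 and Dusp26 at 5.84 to 8.95 TPM, where 55.8% of all tested genes were higher. Under TMM rescaling 4 were higher and 4 lower. Of the Ras-ERK cascade the adaptors Gab1 and Gab2 were higher (8.27 and 11.7 TPM) and Nras lower (log2 -0.68). The p38 kinase activators Map2k6 (log2 1.01, and -0.11 under TMM rescaling) and Map2k3 (-0.80) were called in opposite directions, 1 Ras GTPase-activating protein of 8, Dab2ip, was higher at 4.42 TPM, and 0 of 11 partners were called. Under TMM rescaling 13 of 23 cascade genes, 9 of 15 p38 and JNK genes and 7 of 11 partners were lower and 0 higher. Of the 8 Ras GTPase-activating proteins 5 were then lower and 1 higher. Over all 22108 genes tested under TMM rescaling 9458 were higher and 4271 lower, where 328 were lower in the main test. After background subtraction 0 genes of these 4 lists and 0 of 12 other dual-specificity phosphatases were called. Of 21 ERK-responsive genes 1 was then higher and 0 lower, and Spry3, Spry4 and Spred3 were not tested. Over all genes 31 were then higher and 12 lower.

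For each member with a mean of at least 5 TPM, the genes whose log2 values lay closest after centring were listed among genes of at least 20 TPM, by the root mean square difference over the libraries of a table. In the young table (6 libraries) Dusp1 was closest to Rgs2 (0.22) and Junb (0.28) and Dusp4 to Egr3 (0.11) and Snora31 (0.12). The SDs of Dusp1 and Dusp4 on this scale were 0.84 and 0.79. Dusp2 was closest to Qtrt1 (0.036) and Clk4 (0.054). In the aged table (12 libraries) distances were larger. Spry2 was closest to Kmo (0.77) and Rell1 (0.85), with an SD of its own of 1.9, and Dusp1 to Mir17 and Jun (both 0.48, SD 1.3). Dusp6 was closest to 4933424B01Rik (0.39) and then Dgkz (0.40), with an SD of 0.76. These distances describe profiles that share libraries and their background.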

How the data were processed

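RNA was measured by RNA-seq in 18 libraries of splenic B cells, selected with magnetic beads (at least 85% pure in the aged set, per the labels' protocols). The authors deposited 2 tables of TPM, 1 column per library. Per the labels the aged table holds TPM, and the young table was read as TPM because its library sums equal those of the aged table. Per the submitters' processing notes mm10 and STAR 2.4.0.1 were used, while the sources used here name no quantification tool, annotation or strandedness. Without strand, overlapping genes cannot be separated. Left out were entries with a date as name (26 young, 25 aged) and 887 young entries with no name (4.44% to 9.36% of TPM). The tables were analysed separately.

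A gene was tested where the number of libraries at 1 TPM or more reached the size of the smaller group. Tests ran on log2(TPM + 1) with limma 3.58.1 in R 4.3.3 (variance trend, robust, two-sided), and p-values were adjusted by Benjamini-Hochberg over all genes tested. The members, gene lists and tests were chosen with earlier results of these data known. Named from the lists are at most 3 called genes per direction. In simulated data a log2 change of 2 was recovered for 99% of changed genes in the young comparison (12219 genes), 69.8% for CLL cells against wild-type (21202), 82% against non-CLL cells (22316) and 59.6% for non-CLL against wild-type cells (22150). For changes of 1 these shares were 91.6%, 4.8%, 16% and 5%. The changes were placed only on genes whose mean log2 value was above that of 20 TPM. The shares therefore do not apply to members below that level. In the measured data 51.0%, 3.54%, 5.77% and 57.3% of the tested genes were called, in the same order of comparisons. Whether the recovered shares hold for data with these portions of called genes was not tested. Alternatives covered the pseudocount, filter, scaling, background, weights, replicate block and each library left out.

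The series' design text states that non-CLL cells came from the same mice as CLL cells, and library numbers 2, 4, 5 and 6 occur in both groups with the same genotype, so these libraries were treated as pairs in 1 alternative. Their deviations from the group means correlated at -0.03, 0.03, 0.08 and 0.13 over the genes tested.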

Additional observations from a re-analysis of the deposited data

Results flagged for a closer look

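In 20 sets of values (10 genes in CLL and in non-CLL libraries) the highest or lowest library was compared with the others, and 2 sets held a library that stood far from the rest. Chance flags about 1 in 20 such sets. Dusp10 in CLL library 1, at 231 TPM, was separated from the next library by 0.883 of the group's range. Spry1 in CLL library 6, at 14.9 TPM, was separated by 0.782 of the range. That library also had the highest olfactory receptor median of the aged table, 9.66 TPM.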

How the results depend on the processing

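Spry2 between CLL and non-CLL cells and Dusp2, Dusp4 and Dusp10 in young mice kept direction and call under every alternative that tested them. Over all members, 574 of the alternative values kept direction and call, 29 lost a call, 35 gained one and 35 changed sign; the cause was not tested. Young members called higher were 5, and 3 with at least 20 TPM (fewer genes tested) or TMM rescaling, which called 1 lower. Over all genes 3113 and 2916 were higher with these settings, against 4698 in the main test. TMM rescaling called 2773 of all genes lower, against 1539. Leaving out 1 library gave 4 to 5 higher and 0 to 1 lower. For CLL cells against wild-type 1 was higher and 0 lower. Higher were 2 with a pseudocount of 0.5 or 1 fit over the 3 aged groups, 3 with library weights, and 0 with background subtraction, without trend and robust estimation (Dusp1, limma adjusted p = 0.0513) or with the replicate block. Over all genes 623 were higher in the main test. They were 6882 with a pseudocount of 0.5, 6224 with 1 fit and 10971 with library weights. With the settings that called 0 members they were 48, 122 and 2. Lower was 1 with a pseudocount of 0.5, TMM rescaling, library weights, 1 fit over the 3 aged groups or heterozygous mutant libraries. Over all genes 319 to 1430 were lower with these settings, against 128 in the main test. Leaving out 1 library gave 1 to 2 higher and 0 to 1 lower. For CLL against non-CLL cells 1 was lower, 4 with library weights or heterozygous libraries, 2 with 1 fit over the 3 groups, and 1 to 4 with 1 library left out. Over all genes 1121 were lower in the main test. They were 11206 with library weights, 10912 with heterozygous libraries, 3174 with 1 fit and 10736 without CLL library 6. In the comparison of non-CLL and wild-type cells 5 were higher, 1 with at least 20 TPM, 0 with TMM rescaling or background subtraction, 3 with 1 fit over the 3 groups, and 3 to 5 with 1 library left out. Over all genes 12353 were higher in the main test. They were 68 with at least 20 TPM, 9458 with TMM rescaling, 31 with background subtraction and 12126 with 1 fit.

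None of the values that changed sign was called in the main test except Spred1 and Spred2 in non-CLL B cells. In young mice Dusp6 was -0.09 with TMM rescaling, and Spry2 was 0.28 against wild-type library 3 alone and from -0.45 to 0.07 with 1 library left out (positive without wild-type library 2). For CLL cells against wild-type Dusp2 was 0 with TMM rescaling or library weights, Dusp10 -0.04 with TMM rescaling and -0.27 without CLL library 1, Spred2 -0.59 with background subtraction, and Dusp4 from -0.68 to 0.43 with 1 library left out (positive without CLL library 4 or 5 or wild-type library 1). For CLL against non-CLL cells TMM rescaling gave 0.53 for Dusp1, 0.37 for Dusp2, 0.29 for Dusp5 and 0.22 for Spred2. Dusp6 was -0.09 with heterozygous libraries only and from -0.09 to 0.47 with 1 library left out (negative without non-CLL library 2 or 6). Dusp10 was -0.6 with library weights, -0.33 with heterozygous libraries only, and from -0.63 to 0.52 with 1 library left out (negative without CLL library 1 or non-CLL library 4 or 6). Against wild-type, in non-CLL B cells, TMM rescaling gave -0.13 for Dusp2, -0.48 for Dusp6, -0.77 for Dusp10 and -0.18 for Spred1, background subtraction -0.65 for Dusp4, -0.32 for Dusp10, -0.36 for Spred1 and -1.4 for Spred2, and Dusp10 was from -0.06 to 0.85 with 1 library left out (negative without non-CLL library 2).

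With the replicate block, pairing by mouse number changed no member's call between CLL and non-CLL cells, where Spry2 was at -3.49 (limma adjusted p = 6.49e-05) and Dusp10 turned to -0.63. Young libraries share only a number (correlations of -0.1, 0.24 and 0.32, with 2 of 3 libraries closest to their own number), and the block left 5 members called higher. CLL and wild-type libraries 1 and 2 also share only a number, from different mice. That block takes the change from these libraries alone, so its lost calls rest on few unrelated libraries. It gave Dusp1 1.95 (limma adjusted p = 0.0833), Dusp4 0.32 and Spred2 -0.1. No paired analysis was possible because the groups share only the number 2, in the comparison of non-CLL with wild-type cells.

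With TMM rescaling the all-gene median went from 0.18 to -0.01 (young), 0.93 to 0.60 (CLL against wild-type), -0.77 to -0.08 (CLL against non-CLL) and 1.65 to 0.91 (non-CLL against wild-type). The share of called genes that were higher went from 75.3% to 51.3%, 83% to 78.8%, 12.9% to 69.9% and 97.4% to 68.9%. With background subtraction it was 75.3%, 47.5%, 50% and 72.1%. Over the alternatives, genes called higher ranged from 2116 to 6026 (main 4698), 2 to 10971 (623), 23 to 499 (166) and 31 to 14227 (12353), and genes called lower from 742 to 2773 (1539), 0 to 1430 (128), 106 to 11206 (1121) and 12 to 4271 (328). The lows of 2 and 0 for CLL against wild-type cells came with the replicate block on their shared numbers. The depth of the libraries is unknown, and in the aged table the olfactory receptor level limits what can be said of members under about 20 TPM.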
